A study of Mus musculus with 15 samples.

Results

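The matricellular glycoproteins are secreted proteins that sit in the extracellular matrix and act on cells, growth factors and other matrix molecules more than they carry load. Their transcripts were followed in fibroblasts sorted from the mouse thymus after irradiation. The genes were taken by name from the deposited count table: Tnc, Postn, Thbs1, Thbs2, Sparc, Sparcl1, Smoc2 and Fn1. All 8 were present among its 12763 genes, and all 8 passed the filter on low counts that left 10207 genes for testing. Fn1, which codes for fibronectin, is a structural glycoprotein that several of the others bind.

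The libraries came from young male wild-type mice in 3 groups of 5: day 3 after sublethal irradiation with 425 rad, day 1 after the same dose, and untreated mice of matched age. The thymus was digested (Liberase TH with DNase) before fibroblasts were sorted by a gate labelled CD45-EpCAM+CD34+CD31-PDGFRalpha+. The labels carry EpCAM with a plus sign, while Epcam had 10 unique molecular identifiers (UMIs) in the day 3 libraries together, 10 in the day 1 libraries and 11 in the untreated libraries. Whether the replicates of a group came from different mice is not stated in the labels, and the tests therefore speak of the scatter among these libraries, some of which may be technical. Libraries were made by MARS-seq, which counts UMIs at the 3′ end of polyadenylated RNA, so a count does not grow with transcript length and does not separate splice forms such as the extra domains of Fn1.

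Matricellular proteins are made during development, wound repair and fibrosis, and many are low in resting adult tissue. Fibroblasts lay them down beside collagen, and cells read them through integrins, CD47, CD36, syndecans and Toll-like receptors. In the thymus the fibroblasts of the capsule and the vessel walls make most of the matrix, and irradiation kills thymocytes, after which the organ shrinks and later regrows.

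RefSeq windows of the bases before the annotated start were found for 4 of the 8 genes (Tnc, Postn, Thbs2 and Sparc). The windows of Tnc, Thbs2 and Postn are shown because these are the genes among these 4 with the letters TATAAA upstream, and because Tnc and Thbs2 moved in opposite directions at day 1. The other genes of the set were not searched. Each line holds the 250 bases before the start in GRCm38.p6, read 5′ to 3′ on the gene's strand, and capitals mark TATAAA or its reverse complement TTTATA.
Tnc, chr4:64047016-64047265, minus strand: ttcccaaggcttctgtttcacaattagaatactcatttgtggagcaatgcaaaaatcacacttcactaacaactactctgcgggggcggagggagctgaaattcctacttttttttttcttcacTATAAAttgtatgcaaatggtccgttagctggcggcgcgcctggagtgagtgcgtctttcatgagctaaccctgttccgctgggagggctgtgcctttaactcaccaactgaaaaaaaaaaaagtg
Thbs2, chr17:14694263-14694512, minus strand: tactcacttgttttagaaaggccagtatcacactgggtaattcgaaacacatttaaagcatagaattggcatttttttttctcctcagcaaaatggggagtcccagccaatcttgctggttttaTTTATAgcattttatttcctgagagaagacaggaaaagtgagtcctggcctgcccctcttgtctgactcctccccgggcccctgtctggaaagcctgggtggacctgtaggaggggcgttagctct
Postn, chr3:54360857-54361106, plus strand: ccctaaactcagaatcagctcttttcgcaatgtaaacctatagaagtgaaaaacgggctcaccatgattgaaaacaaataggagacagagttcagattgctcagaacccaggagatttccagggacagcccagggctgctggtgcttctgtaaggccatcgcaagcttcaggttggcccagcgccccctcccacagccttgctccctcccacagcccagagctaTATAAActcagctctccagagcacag
The match in Tnc lay at bases -126 to -121 from the start. From another annotated Tnc start, at base 64046936 with its window not shown, the same letters lay at bases -205 to -200. The match in Thbs2 lay at bases -126 to -121 on the other strand, and the match in Postn at bases -26 to -21. Another Postn window, before the start at base 54359267, is not shown and had no such match. TATAAA on either strand was present in 12.4% of all 32851 such windows. The AP-1 letters TGANTCA, present in 6.75% of windows, and the core of the interferon-stimulated response element, present in 2.98%, were searched on both strands and matched none of the 6 windows of these 4 genes. The GC box letters GGGCGG, present in 32.7% of windows, matched the Tnc windows and no other of the 6. These matches describe letters and not binding.

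Library totals ran from 740169 to 3750214 UMIs, and the smallest was day 1 replicate 1. Its score on the second principal component was 65.97, and those of the 4 remaining day 1 libraries were -27.3 to -23.98. Without that library the log2 changes at day 1 against untreated were 3.13 for Tnc, 1.48 for Thbs1, -1.28 for Thbs2, -2.13 for Sparcl1 and -2.81 for Smoc2 (edgeR adjusted p = 3.5e-06, 0.0136, 5.9e-06, 7.0e-09 and 2.0e-10), and -0.67 for Postn, -0.62 for Sparc and -0.43 for Fn1 (edgeR adjusted p = 0.102, 4.5e-04 and 0.0523). At day 3 against day 1 they were -4.32 for Tnc, 0.69 for Thbs2, 2.04 for Sparcl1, 1.95 for Smoc2 and 0.55 for Fn1 (edgeR adjusted p = 4.2e-07, 0.00476, 2.3e-08, 6.6e-08 and 0.0215), and -0.15 for Postn (edgeR adjusted p = 0.742). Levels are given as CPM, which are UMIs scaled to library sizes adjusted by the trimmed mean of M-values (TMM). Cdkn1a, the p53 target that checks the irradiation label, averaged 1215 ± 208 CPM at day 3 and 1467 ± 316 CPM at day 1. It averaged 194.4 ± 35.1 CPM in untreated fibroblasts (SD, n = 5 each). Pdgfra and Cd34, both named in the gate, were present in every library. Pdgfra was at 168.7 to 242.1 CPM at day 3, 80.3 to 158.1 CPM at day 1 and 262.8 to 359.7 CPM untreated, and Cd34 at 921.7 to 1169 CPM at day 3, 335.4 to 640.9 CPM at day 1 and 1474 to 1700 CPM untreated. The endothelial marker Pecam1 stayed under 20 CPM in every library. The 9 endothelial markers summed to 49.95 to 83.5 CPM at day 3, 51.8 to 191.5 CPM at day 1 and 52.7 to 116.5 CPM untreated. Thymic epithelial markers, 5 of 8 in the table, summed to 19.2 to 103.3 CPM at day 3, 13.8 to 186.9 CPM at day 1 and 15.35 to 28.4 CPM untreated. The leukocyte marker Ptprc stayed under 8 CPM. Summed over 13 markers of macrophages and dendritic cells, levels were higher. They were 74.7 to 157.4 CPM at day 3, 753.1 to 1367 CPM at day 1 and 123.3 to 518.0 CPM untreated. Summed mesothelial markers were at 340.0 to 1599 CPM at day 3, 484.3 to 3298 CPM at day 1 and 118.6 to 427.0 CPM untreated.

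At day 1 against untreated, Tnc and Thbs1 rose and Postn, Thbs2, Sparc, Sparcl1, Smoc2 and Fn1 fell. Thus 2 of the 8 genes were called higher, where 23.1% of all tested genes were called higher, and 6 of 8 were called lower, where 23.1% of all tested genes were called lower (edgeR quasi-likelihood test, Benjamini-Hochberg adjusted over 10207 genes, threshold 0.05). The libraries of the groups did not overlap for 5 of the 8 genes, against 27.6% of all tested genes. The median log2 change of the 8 was -0.82, beside -0.02 over all tested genes. Without day 1 replicate 1, 6 of the 8 were called, and without day 1 replicate 4, 5 were. When libraries were scaled by their totals alone, the median of all genes shifted by -0.27 on the log2 scale, 1 of the 8 was called higher and 6 lower, and all genes called split 1498 higher to 3652 lower, against 2355 higher to 2362 lower with the scaling used here.

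At day 3 against untreated, Smoc2 and Thbs2 were lower and no gene of the set was called higher. The 2 lower calls of 8 stood beside 9.25% of all tested genes called lower, and the absence of a higher call beside 9.2% called higher. Groups did not overlap for 2 of 8 (Tnc and Smoc2), against 15% of all genes, and the median log2 change of the 8 was -0.44, beside -0.01 over all genes. At an unadjusted p under 0.05, 4 genes of the set were lower and none was higher in the same edgeR fit, and DESeq2 also called none higher. The count of called genes was 4 without day 1 replicate 5 and 1 without day 3 replicate 1, 3 or 4 or untreated replicate 3, 4 or 5. Total-count scaling shifted the median of all genes by -0.12, with 660 called higher and 1442 lower over all genes, against 939 higher and 944 lower with the scaling used here. Thinning every library to the smallest total gave 220 higher and 104 lower.

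At day 3 against day 1, Thbs2, Sparc, Sparcl1, Smoc2 and Fn1 were higher and Tnc was lower. The 5 higher calls of 8 stood beside 16.1% of all tested genes called higher, and the 1 lower call beside 16.6% called lower. Groups did not overlap for 4 of 8, against 20.6% of all genes, and the median log2 change was 0.61, beside 0.01 over all genes. Total-count scaling shifted the median of all genes by 0.14, with 2305 genes higher and 1203 lower, against 1644 higher and 1691 lower. The 3 comparisons share libraries pairwise, so their values are set side by side below and were not correlated. Because these are bulk libraries, fewer fibroblasts that make a transcript and less of that transcript per fibroblast cannot be told apart.

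**Figure D1:**
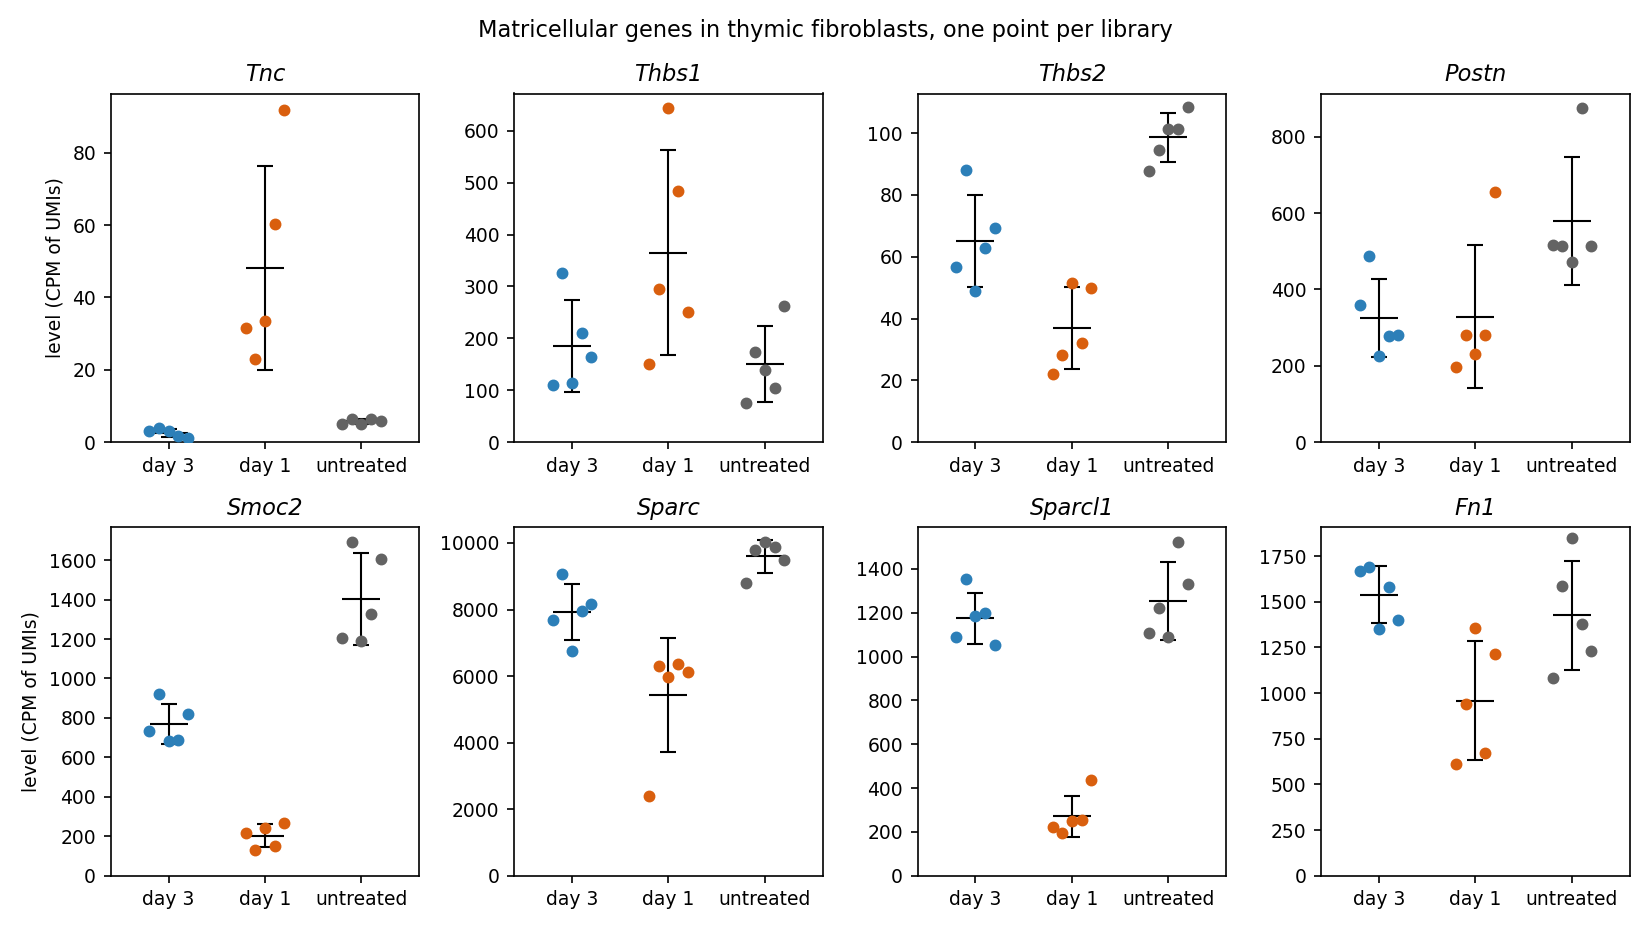
Level of each gene in CPM of UMIs (vertical axes, linear and starting at 0) in the 5 libraries of day 3, day 1 and untreated. Each point is a library, and the black marks give the mean ± SD. Tnc at day 1 lies above every other library of the panel, while Smoc2 and Sparcl1 at day 1 lie below every other library.

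**Figure D2:**
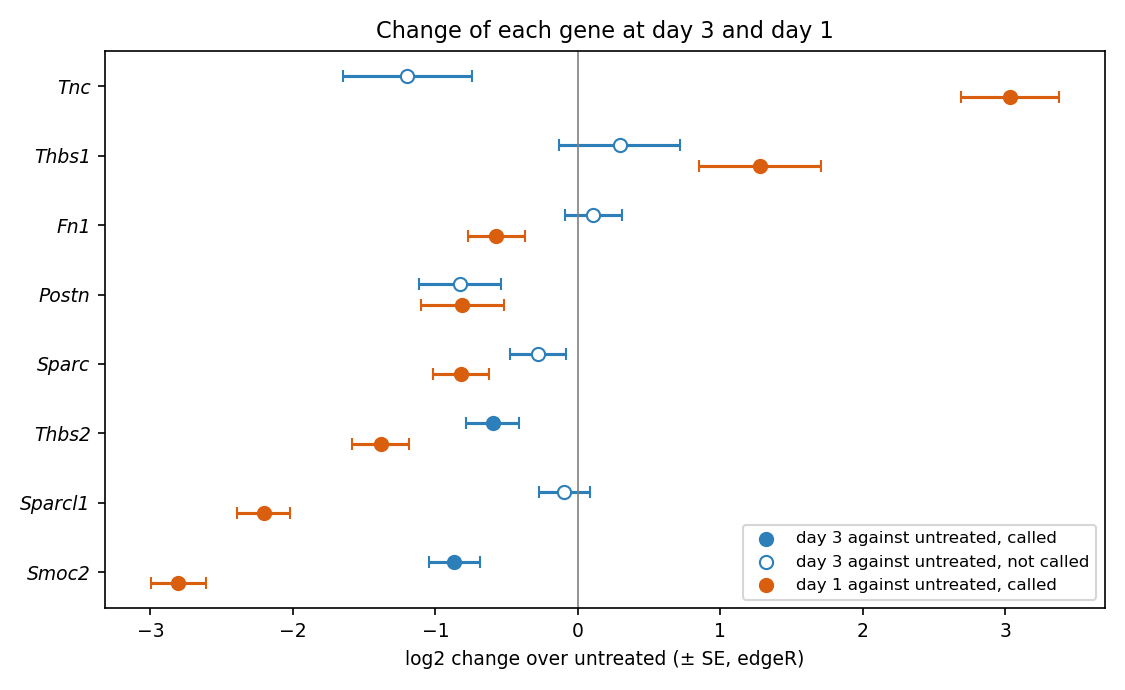
Log2 change over untreated (horizontal axis, ± SE derived from the edgeR F statistic) for each gene at day 3 and day 1. Filled points are calls at an adjusted p under 0.05. At day 1 all 8 genes are called, from -2.81 for Smoc2 to 3.03 for Tnc. At day 3 only Smoc2 and Thbs2 are called.

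Tnc codes for tenascin-C, a large hexameric glycoprotein that is switched on at sites of injury and binds fibronectin, integrins and the receptor TLR4. The gene lies on chromosome 4 (chr4:63959785-64047015, minus strand, GRCm38). Tnc had 3.10, 3.78, 3.03, 1.67 and 1.03 CPM in the 5 day 3 libraries. It had 31.5, 23.1, 33.5, 60.4 and 91.9 CPM in the day 1 libraries, and 5.10, 6.46, 5.04, 6.38 and 5.96 CPM in the untreated libraries. Every day 1 library was above every untreated library, and every day 3 library was below every untreated one. These levels rest on few molecules, with 3 to 14 UMIs per library at day 3, 20 to 140 at day 1 and 6 to 19 untreated.

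The mean of Tnc was 48.1 ± 28.2 CPM at day 1, against 5.79 ± 0.684 CPM untreated (SD, n = 5 each), which was 8.20-fold higher, a log2 change of 3.03 ± 0.34 (SE; edgeR adjusted p = 8.0e-07). Of all tested genes, 147, or 1.44%, had a larger rise. At day 3 the mean was 2.52 ± 1.13 CPM, against 5.79 ± 0.684 CPM untreated, a log2 change of -1.20 ± 0.45 that did not pass the threshold (edgeR adjusted p = 0.0734). Under the alternatives in which Tnc was tested, 6 of 23 called this difference, with adjusted p from 0.00798 to 0.152. Among these were the fits without day 1 replicate 2 or 5 (edgeR adjusted p = 0.0384 and 0.0218). Day 3 was 18.8-fold lower than day 1, a log2 change of -4.23 ± 0.37 (edgeR adjusted p = 6.4e-08), and 18 tested genes, or 0.176%, fell further. Within day 1 the 2 libraries with the most Tnc, replicates 4 and 5, also had the highest summed granulocyte markers, at 41.1 and 55.8 CPM, where the other 3 had 7.85 to 14.2 CPM. Over the groups these markers, 4 of 7 in the table, summed to 0.310 to 3.90 CPM at day 3, with Csf3r at 0, 7.85 to 55.8 CPM at day 1 and 1.70 to 4.68 CPM untreated. The summed level of the pericyte and smooth muscle markers, for 11 markers of which all were in the table, was 258.0 to 469.7 CPM at day 3, 515.5 to 803.8 CPM at day 1 and 298.8 to 513.8 CPM untreated, and the part of either marker list in the Tnc result was not tested.

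Postn codes for periostin, a fasciclin-domain protein that binds collagen, fibronectin and tenascin-C and helps collagen fibrils to cross-link. It lies on chromosome 3 (chr3:54361109-54391037, plus strand). Postn had 358.2, 486.9, 227.0, 276.9 and 280.2 CPM at day 3. It had 196.8, 280.5, 232.1, 279.6 and 656.2 CPM at day 1, and 515.5, 514.3, 471.6, 876.6 and 513.3 CPM untreated. Replicate 5 at day 1 and replicate 4 untreated stood well above the rest of their groups, and the groups overlapped in every comparison.

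The mean of Postn was 329.0 ± 186 CPM at day 1, against 578.3 ± 168 CPM untreated (SD, n = 5 each), a log2 change of -0.81 ± 0.29 (SE; edgeR adjusted p = 0.0301). This call was lost without day 1 replicate 1, 2, 3 or 4, with edgeR adjusted p of 0.102, 0.0713, 0.074 and 0.0602. It was also lost without untreated replicate 4, at a log2 change of -0.61 (edgeR adjusted p = 0.093). At day 3 the mean was 325.8 ± 102 CPM, against 578.3 ± 168 CPM untreated, a change of nearly the same size, -0.83 ± 0.29, that missed the threshold (edgeR adjusted p = 0.0558). It passed without day 1 replicate 5 (edgeR adjusted p = 0.00646) and without day 3 replicate 2 (edgeR adjusted p = 0.0252), and 7 of 24 alternatives called it in all. Between day 3 and day 1 the log2 change was -0.02 ± 0.29 (edgeR adjusted p = 0.975), with an interval of 2 SE from -0.60 to 0.56. Its sign turned without day 1 replicate 5, to 0.38 (edgeR adjusted p = 0.182), without day 3 replicate 3, 4 or 5, to 0.09, 0.04 and 0.04, and with 4 other settings given in the closing section. Tenascin-C and periostin, which bind each other as proteins, therefore had transcripts that moved in opposite directions at day 1.

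Thrombospondin-1 and thrombospondin-2 are trimeric glycoproteins that bind CD47 and CD36 and restrain the growth of vessels. Thrombospondin-1, the product of Thbs1, also frees TGF-beta from its latent complex, a step that thrombospondin-2, the product of Thbs2, does not perform. Thbs1 lies on chromosome 2 (chr2:118111876-118127133, plus strand). Thbs1 had 109.2, 326.9, 114.5, 210.0 and 164.3 CPM at day 3. It had 151.2, 294.4, 643.4, 484.9 and 250.7 CPM at day 1, and 74.9, 172.9, 138.5, 104.8 and 262.2 CPM untreated. The spread within each group was wide, with a coefficient of variation near 50% (48.3% at day 3, 54.1% at day 1 and 48.0% untreated), and the groups overlapped.

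Thbs1 averaged 364.9 ± 197 CPM at day 1, against 150.6 ± 72.3 CPM untreated (SD, n = 5 each), which was 2.43-fold higher, a log2 change of 1.28 ± 0.43 (SE; edgeR adjusted p = 0.024). The call was lost with total-count scaling (edgeR adjusted p = 0.0598) and without day 1 replicate 3 or 4 or untreated replicate 4 (edgeR adjusted p = 0.0671, 0.0551 and 0.0545). At day 3 Thbs1 averaged 185.0 ± 89.3 CPM, against 150.6 ± 72.3 CPM untreated, a log2 change of 0.29 ± 0.42 that did not pass the threshold (edgeR adjusted p = 0.695). Its interval of 2 SE ran from -0.55 to 1.14, and without day 3 replicate 2 the value was -0.01. Day 3 against day 1 gave -0.99 ± 0.42 (edgeR adjusted p = 0.0892), which passed without day 1 replicate 1 and without day 3 replicate 2 (edgeR adjusted p = 0.0482 and 0.0313) and with limma voom, 3 of 24 alternatives in all. The summed level of the mesothelial markers, 8 of 9 in the table and none at 0 in any group, was 340.0 to 1599 CPM at day 3, 484.3 to 3298 CPM at day 1 and 118.6 to 427.0 CPM untreated. Its highest library, day 1 replicate 3, was also the library with the most Thbs1. The order differed in the rest of day 1: replicate 1 had the next highest sum, 2052 CPM, and the least Thbs1 of day 1, 151.2 CPM. The part of these markers in the Thbs1 result was not tested.

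Thbs2 lies on chromosome 17 (chr17:14665500-14694235, minus strand). Thbs2 had 56.8, 88.0, 48.9, 62.7 and 69.3 CPM at day 3. It had 22.1, 28.4, 51.7, 32.2 and 49.9 CPM at day 1, and 87.6, 94.5, 101.4, 101.4 and 108.5 CPM untreated. The day 1 libraries were all below the untreated ones, and 4 of the 5 day 3 libraries were below the lowest untreated library.

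The mean of Thbs2 was 36.8 ± 13.3 CPM at day 1, against 98.7 ± 7.93 CPM untreated (SD, n = 5 each), which was 2.61-fold lower, a log2 change of -1.38 ± 0.20 (SE; edgeR adjusted p = 8.5e-06). At day 3 it was 65.1 ± 14.8 CPM, against 98.7 ± 7.93 CPM untreated, a log2 change of -0.60 ± 0.19 (edgeR adjusted p = 0.0277). That day 3 call was lost without day 3 replicate 1, 3 or 4 (edgeR adjusted p = 0.0744, 0.0727 and 0.0646) and without untreated replicate 3, 4 or 5 (0.0593, 0.059 and 0.0651 by the same test). It was also lost when every library was thinned to 740169 UMIs (edgeR adjusted p = 0.313). From day 1, Thbs2 was 1.73-fold higher at day 3, a log2 change of 0.79 ± 0.20 (edgeR adjusted p = 0.00382), which was lost after thinning (edgeR adjusted p = 0.174).

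Within a library, the ratio of Thbs1 to Thbs2 does not depend on how libraries are scaled. It was 1.92, 3.71, 2.33, 3.35 and 2.37 at day 3. It was 6.66, 10.3, 12.4, 14.97 and 5.00 at day 1, and 0.855, 1.83, 1.36, 1.03 and 2.41 untreated. Thus Thbs1 exceeded Thbs2 in all 5 day 3 libraries, all 5 day 1 libraries and 4 of the 5 untreated libraries. The excess was largest at day 1, where every ratio was above every ratio of the other groups. The mean log2 ratio was 3.19 ± 0.65 at day 1, against 0.48 ± 0.61 untreated (SD, n = 5 each; two-sided exact permutation test, p = 0.00794, adjusted p = 0.0119 over 6 ratio tests). That p is the smallest that all assignments of 5 against 5 libraries can give. At day 3 it was 1.41 ± 0.40, against 0.48 ± 0.61 untreated (exact permutation p = 0.0317, adjusted p = 0.0381), a difference of 0.93. It lost its call when any of the 10 libraries but untreated replicate 5 was left out, with values of 0.75 to 1.04, and was 1.12 without untreated replicate 5. Without day 1 replicate 1 the day 1 ratio exceeded the untreated one by 2.82 (exact permutation, adjusted p = 0.0238). Day 3 differed from day 1 by -1.78 (exact permutation p = 0.00794, adjusted p = 0.0119), and by -1.90 without day 1 replicate 1 (exact permutation, adjusted p = 0.0238).

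**Figure D3:**
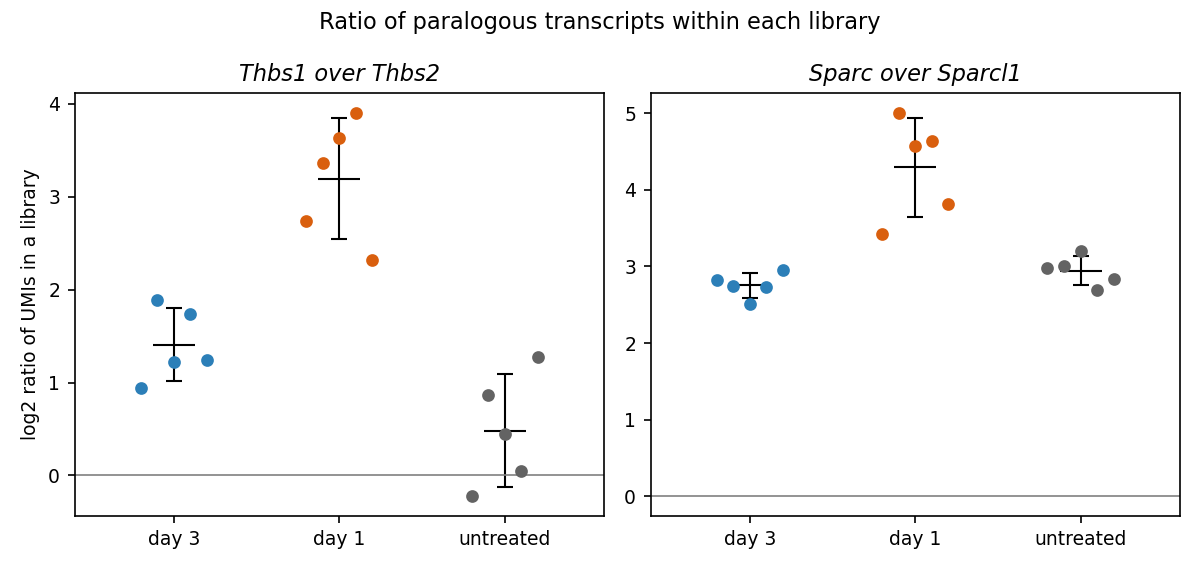
Log2 ratio of UMIs of Thbs1 over Thbs2 and of Sparc over Sparcl1 in each library of day 3, day 1 and untreated, with the mean ± SD in black. Thbs1 over Thbs2 lies between 2.32 and 3.90 at day 1 and between -0.23 and 1.27 in untreated libraries. Sparc over Sparcl1 lies between 3.42 and 5.00 at day 1 and between 2.70 and 3.20 in untreated libraries.

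Sparc, Sparcl1 and Smoc2 code for members of the SPARC family, which share a calcium-binding domain. Sparc, also called osteonectin, binds collagen and guides the assembly of its fibrils. It lies on chromosome 11 (chr11:55394500-55423183, minus strand) and was among the most abundant transcripts of these cells, placed 6 of 12763 genes by mean CPM at day 3, 25 at day 1 and 4 untreated. Sparc had 7674, 9080, 6758, 7960 and 8153 CPM at day 3. It had 2402, 6306, 5982, 6358 and 6115 CPM at day 1, and 8784, 9783, 10040, 9884 and 9503 CPM untreated. All day 1 libraries were below all others, and replicate 1 of day 1 was far below its own group.

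The mean of Sparc was 5432 ± 1701 CPM at day 1, against 9599 ± 497 CPM untreated (SD, n = 5 each), a log2 change of -0.82 ± 0.20 (SE; edgeR adjusted p = 0.00187). Without day 1 replicate 1 the change was -0.62 (edgeR adjusted p = 4.5e-04). At day 3 Sparc averaged 7925 ± 839 CPM, against 9599 ± 497 CPM untreated, a log2 change of -0.28 ± 0.20 that did not pass the threshold (edgeR adjusted p = 0.363), with 2 SE reaching from -0.67 to 0.12. Day 3 was 1.46-fold higher than day 1, a log2 change of 0.54 ± 0.20 (edgeR adjusted p = 0.038), which was 0.35 without day 1 replicate 1 (edgeR adjusted p = 0.0384). The call was lost when only the 2 groups were fitted (edgeR adjusted p = 0.0693) and without day 3 replicate 1, 2, 4 or 5 (0.0565, 0.0888, 0.0632 and 0.0622 by the same test), although the groups did not overlap. The summed fibroblast markers moved with Sparc: all 10 were in the table, none was at 0, and their sum was 37080 to 45260 CPM at day 3, 11410 to 26980 CPM at day 1 and 43660 to 50730 CPM untreated. This list includes Col1a1, Col1a2, Col3a1 and Dcn, which are also matrix partners in a later list. Col3a1 averaged 5792 CPM at day 1, against 12210 CPM untreated, and Dcn 6381 CPM, against 15910 CPM. The sum therefore largely reflects matrix transcripts and is not a separate measure of fibroblast content. Day 1 replicate 1 had the lowest of these sums, 11410 CPM, and the part of the fibroblast sum in the Sparc result was not tested.

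Sparcl1, or hevin, is the closest relative of Sparc and is known for its part in decorin and collagen fibril organisation. It lies on chromosome 5 (chr5:104079111-104113733, minus strand). Sparcl1 had 1088, 1352, 1183, 1200 and 1055 CPM at day 3. It had 223.6, 196.3, 251.0, 254.8 and 434.4 CPM at day 1, and 1109, 1221, 1090, 1524 and 1331 CPM untreated. The day 1 libraries lay far below both other groups, which overlapped each other.

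Sparcl1 averaged 272.0 ± 93.8 CPM at day 1, against 1255 ± 179 CPM untreated (SD, n = 5 each), which was 4.61-fold lower, a log2 change of -2.20 ± 0.19 (SE; edgeR adjusted p = 6.1e-09). At day 3 it averaged 1175 ± 116 CPM, against 1255 ± 179 CPM untreated, a log2 change of -0.09 ± 0.18 (edgeR adjusted p = 0.771). The interval of 2 SE about that value ran from -0.45 to 0.26. Day 3 was 4.32-fold higher than day 1, a log2 change of 2.11 ± 0.19 (edgeR adjusted p = 2.6e-08), and 0.725% of tested genes had a larger rise between these groups.

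The ratio of Sparc to Sparcl1 was 7.05, 6.72, 5.71, 6.63 and 7.73 in the day 3 libraries. It was 10.7, 32.1, 23.8, 24.9 and 14.1 in the day 1 libraries, and 7.92, 8.01, 9.21, 6.48 and 7.14 untreated. All 5 day 1 libraries had a higher ratio than any untreated library. The mean log2 ratio was 4.29 ± 0.65 at day 1, against 2.94 ± 0.19 untreated (SD, n = 5 each; exact permutation p = 0.00794, adjusted p = 0.0119). At day 3 it was 2.75 ± 0.16, against 2.94 ± 0.19 untreated, a difference of -0.19 that did not pass (exact permutation p = 0.111, adjusted p = 0.111), though it passed without untreated replicate 4 (difference -0.25, adjusted p = 0.0381 by exact permutation). Without day 1 replicate 1 the day 1 difference from untreated was 1.56 (exact permutation, adjusted p = 0.0238). Day 3 differed from day 1 by -1.54 (exact permutation p = 0.00794, adjusted p = 0.0119), and by -1.76 without day 1 replicate 1 (exact permutation, adjusted p = 0.0238).

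Smoc2 codes for a secreted modular calcium-binding protein of the SPARC family, found at basement membranes and known to take part in growth factor and integrin signalling. It lies on chromosome 17 (chr17:14279506-14404790, plus strand), on the same chromosome as Thbs2. Smoc2 had 733.7, 922.6, 684.6, 687.5 and 818.0 CPM at day 3. It had 214.2, 130.8, 239.7, 152.4 and 269.0 CPM at day 1, and 1204, 1690, 1190, 1328 and 1604 CPM untreated. The groups were fully separated, with day 1 lowest, day 3 between and untreated highest.

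Smoc2 averaged 201.2 ± 58.3 CPM at day 1, against 1403 ± 231 CPM untreated (SD, n = 5 each), which was 6.99-fold lower, a log2 change of -2.81 ± 0.19 (SE; edgeR adjusted p = 2.9e-10). Of all tested genes, 48, or 0.47%, fell further. At day 3 it averaged 769.3 ± 101 CPM, against 1403 ± 231 CPM untreated, which was 1.82-fold lower, a log2 change of -0.87 ± 0.18 (edgeR adjusted p = 0.00215), and this call held under all 24 alternatives. Day 3 was 3.83-fold higher than day 1, a log2 change of 1.94 ± 0.19 (edgeR adjusted p = 9.7e-08). At day 3 the Sparcl1 libraries overlapped the untreated ones and the Smoc2 libraries did not, and this difference between the genes was not tested.

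Fn1 codes for fibronectin, the glycoprotein on which cells assemble a provisional matrix through integrin alpha-5 beta-1. It lies on chromosome 1 (chr1:71585520-71653200, minus strand). Fn1 had 1671, 1691, 1350, 1579 and 1398 CPM at day 3. It had 611.0, 942.1, 1355, 671.4 and 1212 CPM at day 1, and 1084, 1585, 1848, 1381 and 1231 CPM untreated. The groups overlapped in each comparison, and the day 1 libraries were the most spread relative to their mean.

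Fn1 averaged 958.3 ± 326 CPM at day 1, against 1426 ± 300.2 CPM untreated (SD, n = 5 each), which was 1.49-fold lower, a log2 change of -0.57 ± 0.20 (SE; edgeR adjusted p = 0.0225). The call was lost when only the 2 groups were fitted (edgeR adjusted p = 0.0545), without day 1 replicate 1 or 4 (0.0523 and 0.0637 by the same test) and without untreated replicate 2 or 3 (0.0516 and 0.077). At day 3 Fn1 averaged 1538 ± 156 CPM, against 1426 ± 300.2 CPM untreated, a log2 change of 0.11 ± 0.20 (edgeR adjusted p = 0.762), with 2 SE from -0.29 to 0.50 and a sign that turned with total-count scaling (-0.01). Day 3 was 1.60-fold higher than day 1, a log2 change of 0.68 ± 0.20 (edgeR adjusted p = 0.0115). Exons of Fn1, Tnc and Thbs1 overlap those of a non-coding gene on the opposite strand in GENCODE vM21, and none of these 3 partners was a row of the count table; whether reads were counted by strand is not given in the sources used here.

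Together the 8 genes took 1.045% to 1.378% of all UMIs at day 3, 0.331% to 0.851% at day 1 and 1.372% to 1.701% untreated. Sparc alone gave 65.1% to 68.3% of these UMIs at day 3, 62.4% to 76.9% at day 1 and 64.9% to 68.3% untreated. By mean CPM the order at day 3 was Sparc, Fn1, Sparcl1, Smoc2, Postn, Thbs1, Thbs2 and Tnc, in which the ranges of Fn1 and Sparcl1 and of Postn and Thbs1 overlapped. At day 1 the order was Sparc, Fn1, Thbs1, Postn, Sparcl1, Smoc2, Tnc and Thbs2, and the neighbours were separated only between Sparc and Fn1 and between Smoc2 and Tnc. In untreated fibroblasts the order was Sparc, Fn1, Smoc2, Sparcl1, Postn, Thbs1, Thbs2 and Tnc, where Fn1, Smoc2 and Sparcl1 overlapped in turn, as did Thbs1 and Thbs2. Tnc was last at day 3 and untreated and stood above Thbs2 in 3 of the 5 day 1 libraries.

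For each gene the most similar tested genes outside the set were found by the root mean square (RMS) difference of centred log2 CPM over the 15 libraries, a description with no test. Tnc was nearest to Ccl3, a chemokine (RMS 0.51), which averaged 0.265 CPM at day 3, 10.99 CPM at day 1 and 0.552 CPM untreated. Next was Snx20 (RMS 0.61), at 1.185 CPM at day 3, 15.01 CPM at day 1 and 1.946 CPM untreated. Both were near the floor outside day 1, and Ccl3 passed the filter on low counts only through day 1, where it is high. With a prior count of 2 in the log2 values, their likeness to Tnc rests mainly on day 1. Thbs1 was nearest to Ccl2, the chemokine for monocytes (RMS 0.40), which averaged 1833 CPM at day 3, 3893 CPM at day 1 and 1383 CPM untreated, and to Eprs (RMS 0.40). Sparcl1 was nearest to Matn2, a matrilin of the matrix (RMS 0.16), which averaged 128.5 CPM at day 3, 29.7 CPM at day 1 and 164.3 CPM untreated, and to Itm2a (RMS 0.23). Smoc2 was nearest to Itgbl1 (RMS 0.22) and Pcsk6, a proprotein convertase (RMS 0.32). Thbs2 was nearest to Ids and Arl4a (RMS 0.18 and 0.19), Sparc to Rab1a and Ube2e1 (RMS 0.12 and 0.14), Fn1 to Slc43a3 and Grsf1 (RMS 0.16 and 0.19), and Postn to Zc3h11a and Secisbp2l (RMS 0.22 and 0.26). Within the set the closest pair was Sparc and Fn1 (RMS 0.34), while the nearest of the set to Tnc was Thbs1 at 1.40, beside a median of 1.73 over all genes.

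Other matricellular genes, 25 in a list of which 20 were in the table and 16 were tested, moved in both directions. At day 1 against untreated 3 were higher and 10 lower, with a median log2 change of -0.70, beside -0.02 over all genes. As 23.1% of all tested genes were called in each direction, the share called higher was not above that of all genes. Spp1, osteopontin, had 7.67 to 31.2 CPM in the day 1 libraries, against 0 to 0.719 CPM in the untreated ones (edgeR adjusted p = 1.7e-07), where all 5 untreated libraries together held 4 UMIs. The day 3 libraries together held 8, so Spp1 passed the filter on low counts only through day 1, where it is high. Macrophages also make Spp1, and the 13 markers of macrophages and dendritic cells summed to 74.7 to 157.4 CPM at day 3, with Fcgr1 at 0, 753.1 to 1367 CPM at day 1 and 123.3 to 518.0 CPM untreated; their part in the Spp1 and Tnc results was not tested. Ccn3, a CCN-family protein, averaged 29.3 ± 3.68 CPM at day 1, against 115.4 ± 29.4 CPM untreated (edgeR adjusted p = 1.9e-08), Tgfbi, the fasciclin relative of periostin, averaged 59.7 ± 18.8 CPM, against 215.6 ± 35.0 CPM untreated (edgeR adjusted p = 2.3e-07), and Fbln7, a fibulin, 3.10 ± 1.99 CPM, against 15.7 ± 3.94 CPM untreated (edgeR adjusted p = 3.1e-06). Fbln7 had 2 to 9 UMIs per library at day 1. At day 3 against untreated 1 of the 16 was higher and 5 lower, beside 9.2% of all tested genes called higher and 9.25% lower. The share called higher was again not above that of all genes. Ccn2, connective tissue growth factor, averaged 75.7 ± 12.8 CPM at day 3, against 202.8 ± 74.9 CPM untreated (edgeR adjusted p = 2.0e-04), Ccn5 had a log2 change of -1.07 and Ccn3 of -0.71, and Ccn1 and Fstl1, named after their values were seen, completed the 5 at -0.82 and -0.78. Vtn, vitronectin, rose to 59.9 ± 6.17 CPM, against 30.7 ± 11.7 CPM untreated (edgeR adjusted p = 0.00687). The count of 1 higher at day 3 was 2 without untreated replicate 1. Between day 3 and day 1, 9 of the 16 were higher and 4 lower, beside 16.1% and 16.6% of all tested genes.

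Receptors of these proteins, 14 tested of 18 listed, gave 4 higher and 7 lower at day 1 against untreated, with a median log2 change of -0.48, where 23.1% of all tested genes were called in each direction, so the share called higher was near that of all genes. Itga8, the integrin alpha-8 chain that binds fibronectin and tenascin-C, averaged 4.03 ± 2.53 CPM at day 1, against 25.1 ± 6.25 CPM untreated (edgeR adjusted p = 5.0e-07). Cacna2d1, a calcium channel subunit that binds thrombospondins, fell by 2.06 on the log2 scale, and Itgb1, the beta-1 chain, by 0.66 (edgeR adjusted p = 2.1e-05 and 4.7e-04). Counts were low at day 1, with 4 to 11 UMIs per library for Itga8 and 1 to 8 for Cacna2d1. Sdc1, a syndecan, averaged 93.8 ± 13.7 CPM at day 3 and 95.6 ± 9.15 CPM at day 1, against 45.6 ± 11.4 CPM untreated (edgeR adjusted p = 1.3e-04 at day 3 and 1.6e-05 at day 1). Against untreated, day 3 had 1 receptor, Sdc1, higher and 4 lower, Cacna2d1, Itga8, Itgav and Itgb1, with log2 changes of -1.31, -1.13, -0.67 and -0.40 (Itgb1 was named here after its value was seen). The count of 4 lower was 2 without day 3 replicate 1, 3, 4 or 5 or untreated replicate 2, 3, 4 or 5, and 0 with counts thinned to the smallest library total. Over all tested genes 9.2% were called higher and 9.25% lower at day 3 against untreated. Against day 1, day 3 had 4 receptors higher and 1 lower, beside 16.1% and 16.6% of all tested genes. On the log2 scale Itga8 was at 1.75, Itgb5 at 0.65, Lrp1, which clears thrombospondins, at 0.57, and Sdc4 at -1.38. The 1 lower was 2 without day 1 replicate 1 or 5.

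Matrix partners that the 8 proteins bind or organise, all 16 tested, gave 0 higher and 12 lower at day 1 against untreated, with a median log2 change of -1.05 (at an unadjusted p under 0.05 in the same edgeR fit, 0 were higher, and DESeq2 called 0 higher, while 1 was called without day 1 replicate 4). The share over all tested genes was 23.1% in each direction. Col14a1, a fibril-associated collagen, averaged 183.1 ± 39.9 CPM at day 1, against 724.9 ± 40.2 CPM untreated (edgeR adjusted p = 1.9e-09). Dcn, decorin, averaged 6381 ± 1965 CPM, against 15910 ± 764 CPM untreated, and Fbn1, fibrillin-1, 902.5 ± 131 CPM, against 2296 ± 477 CPM untreated (edgeR adjusted p = 1.0e-05 and 5.2e-07). Col12a1 fell by 2.20 on the log2 scale (edgeR adjusted p = 1.5e-05), with 0 to 16 UMIs per library at day 1. At day 3 against untreated 5 were lower, with Col12a1 at -1.79, Col5a2 at -1.28, Fbn1 at -0.70, Col5a1 at -0.62 and Vcan, versican, named after its value was seen, at -0.95, and none was higher (0 at an unadjusted p under 0.05, and 0 by DESeq2). That count of 5 was 8 without day 1 replicate 1 and with total-count scaling, and over all alternatives it ran from 3 with thinned counts to 11 with limma voom. Beside it, 9.25% of all tested genes were called lower and 9.2% higher. Day 3 against day 1 gave 7 higher and 0 lower (0 at an unadjusted p under 0.05, 0 by DESeq2, and 1 without day 1 replicate 1 or with limma voom), led by Col14a1 at 2.05, Eln, elastin, at 1.55, Col3a1 at 1.18 and Dcn at 0.94. In that comparison 16.1% of all tested genes were called higher and 16.6% lower.

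Of the TGF-beta pathway, to which thrombospondin-1 and fibronectin are tied as activator and store, 5 of 19 genes were higher and 10 lower at day 1 against untreated, with a median log2 change of -0.43. The share called higher was near the 23.1% of all tested genes. Tgfb1 averaged 40.6 ± 8.52 CPM at day 1, against 15.9 ± 2.24 CPM untreated, and Smad7, the feedback inhibitor, 266.1 ± 44.8 CPM, against 110.7 ± 28.6 CPM untreated (edgeR adjusted p = 4.8e-06 and 6.5e-06). Tgfb2 moved the other way, with 30.5 ± 13.5 CPM at day 1, against 86.1 ± 15.1 CPM untreated, as did Ltbp4, which tethers latent TGF-beta to the matrix (log2 change of -1.33; edgeR adjusted p = 1.6e-05 and 2.9e-05). Against untreated, day 3 had 2 higher, among them Tgfb1 at 0.77 on the log2 scale, and 2 lower, Ltbp4 at -0.99 and Smad3 at -0.45. Both counts were near the shares of all tested genes, 9.2% called higher and 9.25% lower. The higher count was 1 without day 3 replicate 3 or 4 or untreated replicate 4, and the lower count was 1 without day 3 replicate 1, 2, 4 or 5 or untreated replicate 4 or 5. Day 3 against day 1 gave 7 higher and 2 lower, with Tgfb2 at 1.81, Tgfbr3 at 0.96, Ltbp3 at 0.68 and Smad7 at -0.96, and the 2 lower were 1 without day 1 replicate 5. Over all tested genes 16.1% were called higher between these groups and 16.6% lower.

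Proteases that cut these proteins gave 1 higher and 6 lower of 14 at day 1 against untreated, and 5 higher and 1 lower at day 3 against untreated, where the median log2 change was 0.47. Shares over all tested genes were 23.1% in each direction at day 1, and 9.2% higher and 9.25% lower at day 3. Adamts1 was the 1 that rose at day 1, to 647.6 ± 96.0 CPM, against 327.8 ± 86.9 CPM untreated (edgeR adjusted p = 1.3e-04), while Adamts5 fell by 2.20, Ctsk, cathepsin K, by 1.19 and Htra1 by 0.56 on the log2 scale. Adamts5 had 2 to 11 UMIs per library at day 1. At day 3 Mmp11 averaged 107.9 ± 25.4 CPM, against 26.4 ± 6.15 CPM untreated, Mmp14, the membrane-bound collagenase, 708.5 ± 110 CPM, against 300.8 ± 24.6 CPM untreated, and Mmp2, which it activates, 4033 ± 665 CPM, against 1834 ± 141 CPM untreated (edgeR adjusted p = 1.6e-06, 5.1e-06 and 4.3e-05). The others called higher were Htra1 and Ctsk, each at 0.52 and named after their values were seen. Adamts5 was the 1 lower at day 3, at -1.83 (edgeR adjusted p = 1.9e-04). Between day 3 and day 1, 7 proteases were higher and 1 lower, with Mmp11 at 2.90, Mmp2 at 1.74, Ctsk at 1.71 and Mmp14 at 1.37, and the count of 1 lower was 0 without day 3 replicate 1 and with total-count scaling. Beside these calls, 16.1% of all tested genes were higher and 16.6% lower. The count of 5 higher at day 3 against untreated was 3 with total-count scaling or thinned counts.

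**Figure D4:**
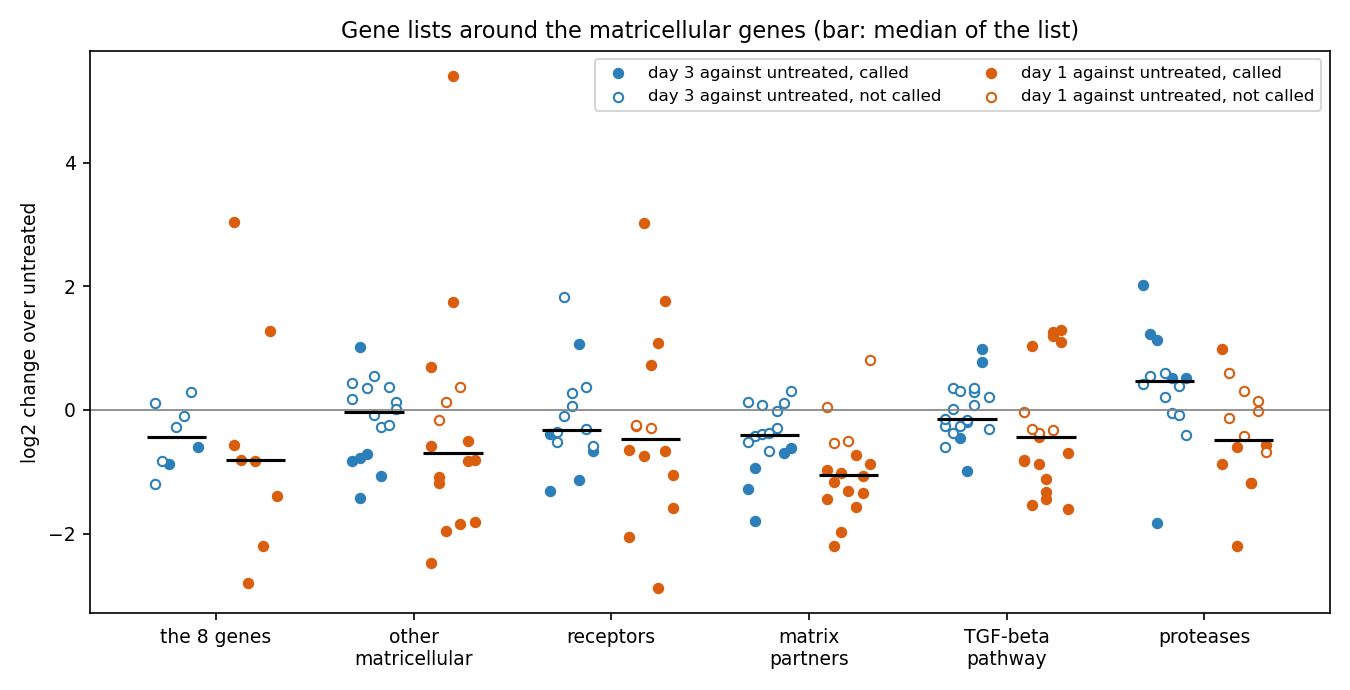
Log2 change over untreated (vertical axis) of the 8 genes and of 5 other lists, at day 3 and day 1 for each list. Points are tested genes, filled when called at an adjusted p under 0.05 by edgeR, and bars are list medians. The matrix partners have a median of -0.41 at day 3 and -1.05 at day 1, and the proteases 0.47 at day 3 and -0.49 at day 1.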

How the data were processed

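RNA of sorted thymic fibroblasts was measured by MARS-seq in 15 mouse libraries, 5 per group. Per the submitters' processing notes, reads were handled with bcl2fastq, cutadapt, STAR 2.5.2b, HTSeq and DESeq2 on mm10. The authors deposited raw UMI counts for 12763 genes, which were used here for all values and tests. The normalized columns deposited by the authors are a signal, each raw value over its library's size factor, as a check against the raw columns showed. Regularized values and fold changes were deposited as log2, with the group named first on top. The deposited p-value columns are the authors' own and were not used for the results.

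Genes were filtered with filterByExpr (10207 tested) and libraries scaled by TMM. A single edgeR 4.0.16 quasi-likelihood fit (R 4.3.3, limma 3.58.1) over all 15 libraries gave the 3 comparisons, with Benjamini-Hochberg adjustment and a threshold of 0.05. Levels are CPM of UMIs on TMM-scaled library sizes. The SE of a log2 change was derived as its absolute value over the square root of the F statistic of the edgeR test. DESeq2 1.42.0, limma voom with quality weights for the libraries, other scalings and filters, thinned counts and leaving out each library were alternatives. Every limma voom result given here used these weights. Ratios of paralogs used a pseudocount of 0.5 UMIs and exact permutation tests. Promoters came from RefSeq (GRCm38.p6) and loci from GENCODE vM21. Totals of 740169 to 3750214 UMIs limit the precision of low genes.

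The 8 genes and the lists were chosen with earlier results of these data known, and the lists were written from general knowledge. Named genes were the 8, up to 4 called genes of smallest p per other list and comparison, the sort and irradiation checks, and the 2 most similar genes for each of the 8. Genes named outside this rule are marked. A gene of the TGF-beta list that the rule names is not reported here.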

Additional observations from a re-analysis of the deposited data

Results flagged for a closer look

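In 30 groups of 5 libraries (the 8 genes and the paralog ratios in each group), 4 held a library whose gap to its nearest neighbour was over 0.71 of the group's range, Dixon's 95% value for 5 samples; chance flags about 1 in 20 groups. Postn had 656.2 CPM in day 1 replicate 5, where the other day 1 libraries had 196.8 to 280.5 CPM. Without that library the Postn change at day 1 against untreated was -1.21 on the log2 scale (edgeR adjusted p = 1.4e-04). Postn also had 876.6 CPM in untreated replicate 4, where the other untreated libraries had 471.6 to 515.5 CPM. Sparcl1 had 434.4 CPM in day 1 replicate 5, where the others had 196.3 to 254.8 CPM. Sparc had 2402 CPM in day 1 replicate 1, where the others had 5982 to 6358 CPM. That library also had the fewest UMIs, 740169, and the lowest summed fibroblast markers, 11410 CPM, and their part in its Sparc level was not tested.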

How the results depend on the processing

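Over 24 alternatives per comparison, 520 of 573 log2 changes of the 8 genes kept their direction and their side of the threshold. At day 1 against untreated 8 of the 8 were called, and 5 to 8 when a library was left out. At day 3 against untreated 2 were called, against 4 with DESeq2, 4 with limma voom, 4 with total-count scaling, 4 with only the 2 groups fitted, 1 with thinned counts, and 1 to 4 when a library was left out. Over all genes 4717 were called at day 1 and 1883 at day 3, each against untreated, and 3335 between day 3 and day 1. Thinning to 740169 UMIs gave 1838, 324 and 1106, with fewer counts and fewer genes tested by construction. At day 3 against untreated limma voom with quality weights gave 3289, and the cause was not tested.

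Signs turned only for changes that were not called. Fn1 at day 3 against untreated was -0.0102 with total-count scaling, and Thbs1 there ran from -0.013 to 0.58 when a library was left out. Postn at day 3 against day 1 was 0.12 with total-count scaling, 0.0166 without a filter, 0.0558 with a replicate block and 0.0032 with only the 2 groups fitted, and ran from -0.21 to 0.38 when a library was left out. The log2 ratio of Thbs1 over Thbs2 at day 3 against untreated ran from 0.75 to 1.12 and that of Sparc over Sparcl1 from -0.25 to -0.13 when a library was left out; of 66 ratio alternatives 56 kept their call.

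Replicate numbers gave no clear sign of pairing: deviations of same-numbered libraries had correlations from -0.3521 to 0.1664, and those of different-numbered libraries from -0.2442 to 0.2485. This check cannot exclude a pairing or a shared batch. With a replicate block 8, 2 and 6 of the 8 genes were called and 4511, 1596 and 3102 of all genes.

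Precision is limited for Tnc, with 3 to 19 UMIs per library outside day 1. Leaving out 1 library leaves fewer libraries, and the smallest totals lie at day 1 and in the untreated group.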
